A study of Mus musculus with 20 samples.

Results

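B cell and immunoglobulin transcripts were examined in mouse liver after repeated oral exposure to benzo(a)pyrene (BaP), a polycyclic aromatic hydrocarbon that is activated in the liver to DNA-binding products. The set consisted of 9 genes, *Ighm*, *Jchain*, *Cd79a*, *Cd79b*, *Ms4a1*, *Mzb1*, *Pou2af1*, *Pax5* and *Blnk*, and every array probe whose transcript accession belongs to 1 of them was taken. This gave 11 of the 41174 probes on the array, with 2 probes each for *Ighm* and *Jchain* and 1 for each of the other genes. *Ighm* was measured by a probe that is printed in 10 spots on each array (the 10-spot probe) and by another printed once (the 1-spot probe), and the *Jchain* probes are A_51_P150705 and A_51_P150710.

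The animals were adult male Muta™Mouse (transgenic strain 40.6, which carries a *lacZ* reporter for mutations), 25 weeks of age, and all 4 groups shared this genotype. Control mice received olive oil alone by gavage for 28 days and are numbered 1 to 5. Exposed mice received BaP in olive oil over the same days, those numbered 6 to 10 at 25 mg/kg/day, those numbered 11 to 15 at 50 mg/kg/day and those numbered 16 to 20 at 75 mg/kg/day. Tissue was taken 3 days after the last dose. RNA of each mouse, labeled with Cyanine 5, was put on an array of its own, and a universal mouse reference RNA pooled from cell lines, labeled with Cyanine 3, was put on all 20 arrays. Values are log2 ratios of liver over reference, so that 0 is an equal signal in both, and a log2 fold change is the difference between the mean log2 ratios of 2 groups.

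B cells carry a receptor made of an immunoglobulin bound to the CD79A and CD79B signaling chains, and after activation some of them become plasma cells that secrete the immunoglobulin instead. IgM, whose heavy chain is encoded by *Ighm*, is the first class made in a response, and its secreted form is joined into polymers by the J chain. In the adult liver, B cells and plasma cells are a minority among hepatocytes. RNA here came from whole tissue, in which fewer cells of a type and less RNA per cell cannot be told apart.

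In the sample labels the tissue appears once as liver and once as lungs, and the paper's methods name liver. Of 8 hepatocyte markers, 6 had a probe, all 6 were present, and their mean log2 ratio lay between 4.65 and 5.90 in the control arrays. Of 6 lung epithelium markers, *Sftpc* and *Sftpb* were not present, and the mean of the other 4 lay between 0.01 and 0.53. In exposed arrays the hepatocyte mean lay between 5.26 and 5.91 and the lung mean between 0.30 and 0.78. The highest of the 4 lung markers in controls was *Sftpd* at 0.97. It differed from control by 1.19 at 75 mg/kg/day (adjusted p = 0.0688 by limma). In the liver channel, from 51.9 to 67.5% of spots stood well above background, depending on the array. The highest share belonged to control replicate 4, and the other control arrays lay between 51.9 and 54.3%.

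Of the 11 probes, 9 were present, that is, their liver signal exceeded the negative control limit in at least 4 of 5 arrays of a group. These 9 probes covered 7 genes, and each of them was well above background on all 20 arrays, so none was retained through a single group. *Cd79a*, which encodes a signaling chain of the B cell receptor, and *Pax5*, the transcription factor that holds cells in the B lineage, passed the well above background mark for liver on 0 of 20 arrays. *Cd79a* exceeded the negative control limit on 6 arrays and *Pax5* on 4. Their mean log2 ratios in the control group, −0.08 ± 0.25 and 0.03 ± 0.10 (SD, n = 5), are therefore not measures of a level. The *Cd79a* probe was well above background in the reference RNA on 7 arrays and the *Pax5* probe on 0.

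None of the 9 present probes was called at any dose. A call required an adjusted p under 0.05 by limma with Benjamini-Hochberg adjustment over all 27346 present probes and a fold change over 1.5. Over all present probes, the share called at 25, 50 and 75 mg/kg/day was 0, 0 and 0.135%, and 0.157% had a dose trend, none of the 9 among them. At an unadjusted p under 0.05, the 10-spot *Ighm* probe differed from control at 50 and 75 mg/kg/day and the 1-spot *Ighm* probe at 50 mg/kg/day, and no member did at 25 mg/kg/day. The shares of all present probes with such a p were 7.81, 6.7 and 11.2% at 25, 50 and 75 mg/kg/day.

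The *Ighm* probes gave the values that stood farthest from the controls. *Ighm* encodes the constant region of the IgM heavy chain and lies on chromosome 12 at 113418826 to 113422730 (GRCm38.p6, annotated as a constant region segment). In the 10-spot probe, the control log2 ratios were 1.33, 0.44, 0.60, 0.73 and 0.53 for replicates 1 to 5. At 25 mg/kg/day they were 1.73, 1.19, 1.31, 0.70 and 1.68 for replicates 6 to 10, and 3 of these 5 values lay within the control range. At 50 mg/kg/day they were 3.39, 1.43, 3.02, 1.62 and 2.95 for replicates 11 to 15, and at 75 mg/kg/day 1.42, 1.00, 1.03, 2.30 and 2.00 for replicates 16 to 20. All 5 values at 50 mg/kg/day lay above every control value, 3 of them near 3 and replicates 12 and 14 only just above control replicate 1, while at 75 mg/kg/day 3 of 5 lay above the controls.

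**Figure D1:**
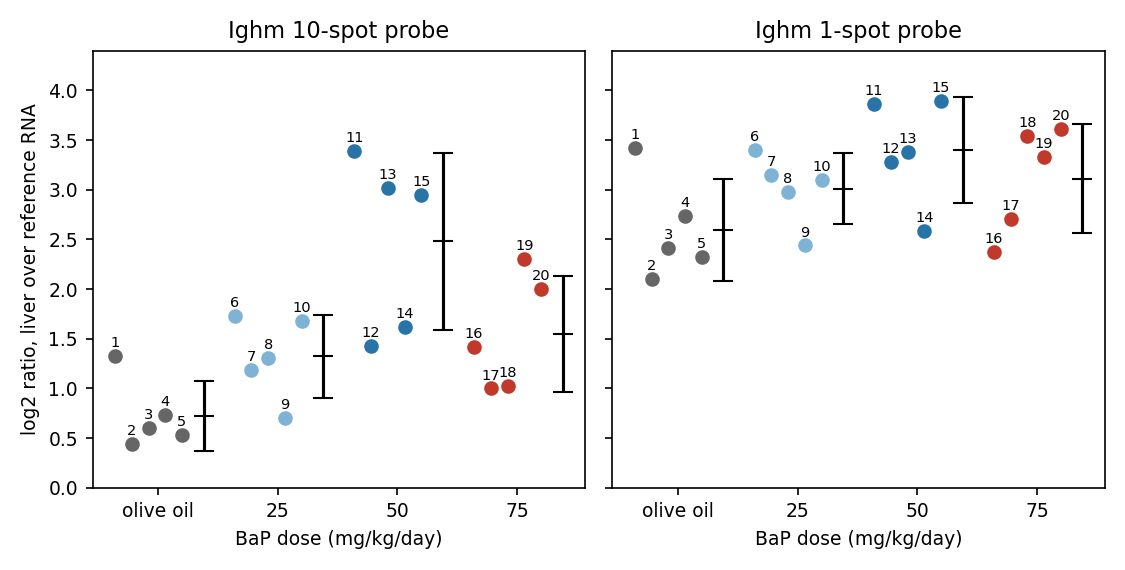
Log2 ratio of liver over reference RNA (vertical axis) for both *Ighm* probes by BaP dose. Points are arrays numbered by replicate, and the bars beside them give the group mean and SD (n = 5). In the 10-spot probe replicates 11, 13 and 15 lie near 3, above all other arrays. In the 1-spot probe the 4 groups overlap.

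The mean log2 ratio of the 10-spot probe was 0.73 ± 0.35 in controls, 1.32 ± 0.42 at 25, 2.48 ± 0.89 at 50 and 1.55 ± 0.58 at 75 mg/kg/day (SD, n = 5 each). The difference from control at 50 mg/kg/day was 1.75 ± 0.34 (SE), a 3.37-fold higher ratio with a 95% interval of 1.04 to 2.47 on the log2 scale. The signal of this probe was low, at 33.8 to 93.5 in control livers after subtraction of background. In the reference its median was 30.3, against an offset of 50 used in the background correction. The 1-spot probe was at 330 to 816 in control livers. The 10-spot probe ranked 1 of 27346 probes by the size of the increase and 6 by p, but its adjusted p by limma was 0.221 and it was not called. The paper had already named this gene as higher at 50 mg/kg on these arrays. Its rank and p-values at this dose are therefore not independent support. The exact permutation test over the 5 and 5 arrays gave a two-sided p of 0.00794, the smallest that 252 relabellings can give. At this dose 0.815% of all present probes had groups that did not overlap. At 25 and 75 mg/kg/day 0 of the 9 members had such groups, against 1.21 and 1.52% of all present probes.

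The adjacent doses did not differ from control by as much. At 25 mg/kg/day the difference in the 10-spot probe was 0.60 ± 0.34 (SE, adjusted p = 0.675 by limma, exact permutation p = 0.0635), and at 75 mg/kg/day it was 0.82 ± 0.34 (adjusted p = 0.372 by limma, exact permutation p = 0.0317). The values did not order by dose. The 50 mg/kg/day group was higher than the 25 mg/kg/day group by 1.16 ± 0.34 (exact permutation p = 0.0476), and the mean at 75 was lower than that at 50 by a log2 difference of −0.93 ± 0.34 (exact permutation p = 0.0794). Neither step passed the adjustment over all probes (adjusted p = 0.464 and 0.712 by limma), and none of the 9 members was called between exposed doses, where the share called was 0% for 50 against 25, 0% for 75 against 50 and 0.0549% for 75 against 25 mg/kg/day. The slope over dose was 0.36 ± 0.14 (SE) per 25 mg/kg/day with an adjusted p of 0.444 by limma, and the moderated F test over the 3 doses gave an adjusted p of 0.219, while 0.0805% of all present probes passed that test and none of the 9 members did.

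The 1-spot *Ighm* probe gave smaller differences in the same direction. Its log2 ratios were 3.42, 2.10, 2.41, 2.74 and 2.32 in controls and 3.86, 3.28, 3.38, 2.59 and 3.89 at 50 mg/kg/day, in the replicate order given above. They were 3.40, 3.15, 2.98, 2.44 and 3.10 at 25 and 2.37, 2.71, 3.54, 3.33 and 3.61 at 75 mg/kg/day. Control replicate 1, the highest control in both probes, lay above all 5 values at 25 mg/kg/day, and 2 of 5 values at 50 and 2 of 5 at 75 mg/kg/day lay above it. The difference from control was 0.80 ± 0.28 (SE) at 50 mg/kg/day, with a 95% interval of 0.21 to 1.40, an adjusted p of 0.676 by limma and an exact permutation p of 0.0556. At 25 and 75 mg/kg/day it was 0.42 and 0.52, with adjusted p-values of 0.729 and 0.508 by limma.

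Both *Ighm* probes are annotated to the same transcript, and probe sequences were not available here to check the match. Over the 20 arrays the log2 ratios of the 2 probes correlated at r = 0.77 (0.68 with the group means removed). This is a description over arrays that share the dose groups and the reference channel. They did not place the same arrays lowest at 75 mg/kg/day: replicate 18 was at 1.03 in the 10-spot probe, among the low values of its group, and at 3.54 in the 1-spot probe, among the high ones. Within an array, the SD over the repeated spots of the 10-spot probe had a median of 0.121 and reached 0.180, against an SD between arrays of a group of 0.598. The spread between arrays holds labeling and hybridization as well as differences between mice. The 10-spot probe was well above background in the reference channel on 15 of 20 arrays and the 1-spot probe on 20.

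The arrays were on 6 slides of 4 positions, and dose and position on the slide nearly coincided, so that position and dose cannot be told apart. Slides 1, 2, 3 and 6 held control arrays and slides 4 and 5 only arrays at 25 and 75 mg/kg/day. Within slides 1, 2, 3 and 6, the 10-spot *Ighm* ratio at 50 mg/kg/day exceeded the control of the same slide by 2.21, 1.09, 2.06 and 1.70. For the 1-spot probe the same differences were 1.16, 0.27, 0.44 and 1.08. Both probes were thus higher at 50 mg/kg/day on each slide that allowed the comparison.

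With slide as a fixed block, the 10-spot probe at 50 mg/kg/day kept its difference of 1.75, since control and 50 mg/kg/day arrays shared the same slides, with an adjusted p of 0.0689 by limma. With slide as a random block the adjusted p was 0.0489 by limma, and the probe was 1 of 6 called. The other doses changed in size. Within slides 1, 2 and 3, the 10-spot probe differed from the controls by −0.03, 0.78 and 0.35 at 25 mg/kg/day and by 0.27, 0.50 and 0.09 at 75 mg/kg/day. The difference at 75 mg/kg/day was 0.42 with slide as a fixed block and that at 25 was 0.20.

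**Figure D2:**
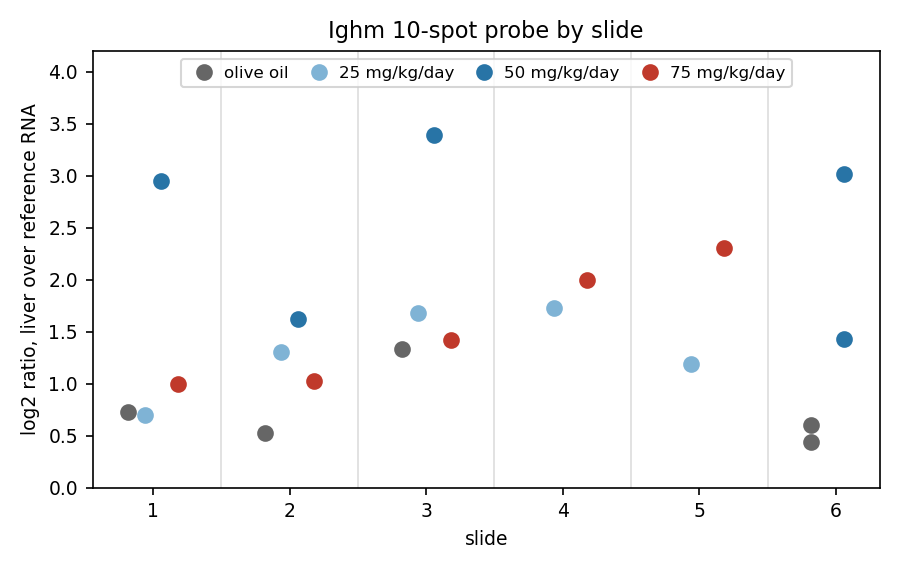
Log2 ratio of liver over reference RNA for the 10-spot *Ighm* probe (vertical axis) on each of the 6 slides (horizontal axis), with 1 point per array colored by dose. On slides 1, 2, 3 and 6 the arrays at 50 mg/kg/day lie above the control arrays of the same slide, and slides 4 and 5 hold no control array.

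The other immunoglobulin gene of the set, *Jchain* (chromosome 5, 88519809 to 88527897, GRCm38.p6), encodes the chain that joins secreted IgM and IgA into polymers. Its probes were below the reference RNA on all 20 arrays. The control log2 ratios of A_51_P150705 were −3.67, −4.01, −3.39, −3.48 and −3.29, and at 50 mg/kg/day they were −3.81, −3.58, −4.14, −3.99 and −3.24. The values at 50 mg/kg/day spanned the control range on both sides. The difference from control was −0.11, −0.18 and −0.12 at 25, 50 and 75 mg/kg/day with an SE of 0.15, and A_51_P150710 gave −0.07, −0.08 and −0.03 with an SE of 0.20. The lowest adjusted p of the present probes other than *Ighm* at 50 mg/kg/day was 0.856 by limma.

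The 95% interval of the difference at 50 mg/kg/day was −0.51 to 0.14 for A_51_P150705 and −0.50 to 0.34 for A_51_P150710. Both intervals lie wholly below that of the 10-spot *Ighm* probe, whose lower end was 1.04. The interval of the 1-spot *Ighm* probe, 0.21 to 1.40, lies above that of A_51_P150705 and overlaps that of A_51_P150710. The difference between the genes was not itself tested.

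*Mzb1*, whose product is an endoplasmic reticulum protein that assists IgM assembly and secretion in marginal zone B cells and plasma cells, was measured by a probe with 10 spots (chromosome 18, 35647265 to 35650266, GRCm38.p6). It had the smallest spread between arrays of the present members, 0.181 within groups. Its mean log2 ratio was −2.88 ± 0.25 in controls, −2.97 ± 0.06 at 25, −2.95 ± 0.20 at 50 and −2.92 ± 0.16 at 75 mg/kg/day (SD, n = 5 each). The groups overlapped at each dose. The differences from control were −0.09, −0.08 and −0.05 with an SE of 0.12, and the 95% interval at 50 mg/kg/day, −0.32 to 0.17, excludes a log2 change of 1.

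Among receptor and surface genes, *Cd79b* (chromosome 11, 106311341 to 106314562), the signaling partner of CD79A, had a control mean of −2.88 ± 0.22 and means between −2.90 and −2.86 at the 3 doses (SD, n = 5). Its differences from control were 0.01, −0.02 and 0.02 at 25, 50 and 75 mg/kg/day with an SE of 0.14. *Ms4a1*, which encodes the B cell surface protein CD20 (chromosome 19, 11249679 to 11266149), was at −2.82 ± 0.36 in controls and differed by −0.18, −0.07 and −0.02 with an SE of 0.18. In both genes no exposed array lay below all controls, and at most 1 array of a dose group lay above them. The 95% interval at 50 mg/kg/day was −0.31 to 0.28 for *Cd79b* and −0.45 to 0.31 for *Ms4a1*. The median signal of *Ms4a1* minus background was 88 in liver and 1658 in the reference.

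*Pou2af1* encodes a coactivator of the octamer-binding factors that act on immunoglobulin promoters in B cells, and *Blnk* an adaptor that links the B cell receptor to downstream signaling. *Pou2af1* had a control mean of −3.73 ± 0.40 (SD, n = 5) and differed by −0.16, −0.18 and −0.19 at 25, 50 and 75 mg/kg/day with an SE of 0.16. *Blnk* had the widest spread of the members other than *Ighm*, 0.431 within groups. Its values were −2.92, −3.37, −3.66, −2.56 and −2.48 in controls and −3.05, −2.73, −2.94, −3.56 and −2.05 at 50 mg/kg/day, with replicate 15 above all controls and the rest among them. It differed from control by −0.25, 0.13 and −0.19 with an SE of 0.25. Within slides 1, 2, 3 and 6, *Blnk* at 50 mg/kg/day differed from the controls of the same slide by 0.50, −1.08, −0.13 and 0.68.

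**Figure D3:**
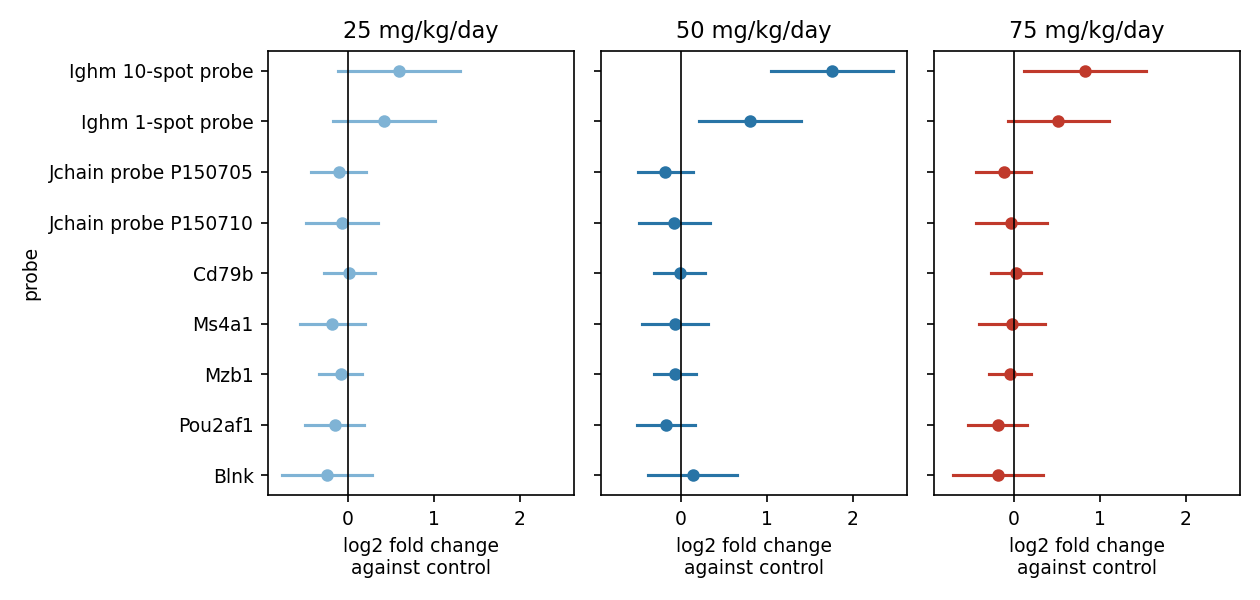
Log2 fold change against control (horizontal axis) with its 95% interval for the 9 present probes at each dose. The intervals of the 10-spot *Ighm* probe exclude 0 at 50 and 75 mg/kg/day and that of the 1-spot probe at 50 mg/kg/day, before adjustment. All intervals of the other 7 probes include 0.

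The 7 present probes other than *Ighm* had a median difference from control of −0.11, −0.08 and −0.05 at 25, 50 and 75 mg/kg/day, and the median of all present probes was within 0.01 of 0 at each dose. At each dose 1 of the 7 was above 0, compared with between 49.2 and 50.6% of all present probes. The 3 comparisons share the same control arrays. The lowest unadjusted p of the 7 was 0.330, 0.248 and 0.251 by limma at 25, 50 and 75 mg/kg/day.

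The members other than *Ighm* varied together over the arrays to different degrees. *Pou2af1* correlated with *Jchain* probe A_51_P150705 at r = 0.91 and with *Mzb1* at 0.77, and *Mzb1* with that *Jchain* probe at 0.82, over the 20 arrays. The 10-spot *Ighm* probe correlated with these at −0.32, −0.31 and −0.25 in the order *Pou2af1*, *Jchain* and *Mzb1*. With *Blnk* the 10-spot probe correlated at 0.34, and the 1-spot probe at 0.44 with *Blnk* and at 0.28 with both *Cd79b* and *Ms4a1*. Arrays with high *Ighm* ratios differed in these genes. Replicate 13 was at 3.02 in the 10-spot *Ighm* probe and had the lowest value of the 20 arrays in A_51_P150705 (−4.14) and *Pou2af1* (−4.35), while replicate 15, at 2.95 in the 10-spot probe, had the highest value in A_51_P150705 (−3.24) and was at −2.67 in *Mzb1* and −3.58 in *Pou2af1*, near the top of both. The *Jchain* probes correlated with each other at 0.53, and at 0.93 with the mean of each slide removed. These correlations are descriptions over arrays that share slides and 1 reference RNA, and probes far below the reference share a strong reference signal.

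**Figure D4:**
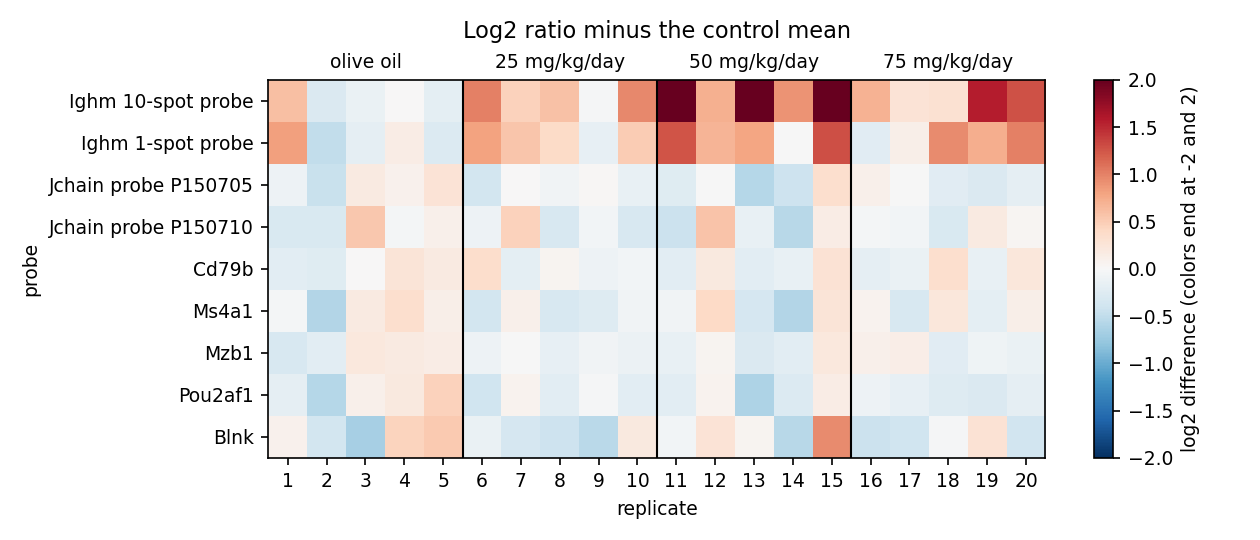
Log2 ratio of each array minus the control mean of that probe (color, red above and blue below) for the 9 present probes (rows) and 20 replicates (columns), with vertical lines between dose groups. Both *Ighm* rows are red over most exposed arrays and darkest in replicates 11, 13 and 15 of the 10-spot probe. The other 7 rows vary from array to array within each group.

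Promoter sequence (250 bases before to 50 after the transcription start, RefSeq, GRCm38.p6) was given for 5 of the 9 members, *Jchain*, *Cd79a*, *Pou2af1*, *Pax5* and *Blnk*. Because the product of *Pou2af1* acts on promoters with the octamer ATGCAAAT, both strands were searched for these letters. They occurred in the promoter of *Blnk* and in 1.74% of all 32851 promoters, and the shorter TGCAAAT, which is contained in the octamer, in those of *Blnk* and *Pou2af1* and in 4.02% of all. The 30 bases around each match are shown because these are the matches among the members. The capitals mark the octamer, as its reverse complement, in *Blnk* (chr19:40994333-40994362, minus strand) and TGCAAAT in *Pou2af1* (chr9:51213448-51213477, plus strand).
Blnk: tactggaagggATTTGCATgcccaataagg
Pou2af1: ccgtggctgtgTGCAAATggccttggcctc
The match begins 130 bases before the start site in *Blnk* and 231 bases before it in *Pou2af1*. No array value bears on binding at these letters.

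Of 35 further B lineage genes, 34 had a probe and 25 were present, and 0 of the 25 were called at any dose. Each gene in this and the other marker lists was read from its brightest present probe alone. *Cd38* and *Irf8* had 2 present probes and *Edem1* had 3. By limma 1, 3 and 3 of the 25 genes had an unadjusted p under 0.05 at 25, 50 and 75 mg/kg/day, where 7.81, 6.7 and 11.2% of all present probes did. The median difference of the 25 genes from control was −0.09, −0.06 and −0.09, against a median within 0.01 of 0 for all present probes. The largest values belonged to *Cd38*, an ectoenzyme found on many leukocytes and in other tissues, at 0.84 at 25 mg/kg/day but −0.26 at 50, and to *Bcl6*, a transcriptional repressor of germinal center B cells that hepatocytes also express, at −0.65 at 75 mg/kg/day. *Ly6d*, a surface marker of B cell progenitors, was at −0.49 at 50 mg/kg/day. *Cd74*, the invariant chain of MHC class II, was at 0.39 at 50 mg/kg/day, and *Faim*, an inhibitor of Fas-induced apoptosis, was at −0.37 at 75 mg/kg/day.

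Of 11 plasma cell and antibody secretion genes, all 11 were present and 0 were called at any dose, with 1, 1 and 2 at an unadjusted p under 0.05 by limma. The shares of all present probes with such a p were 7.81, 6.7 and 11.2% at 25, 50 and 75 mg/kg/day. *Derl3*, which acts in the removal of misfolded secretory proteins, was at −0.80, −0.87 and −1.13 at 25, 50 and 75 mg/kg/day (adjusted p between 0.472 and 0.803 by limma). *Creld2*, an endoplasmic reticulum stress gene, was at −0.41, −0.50 and −0.41. *Edem1*, which also acts in the removal of misfolded proteins, was at 0.23, 0.18 and 0.28, and at 75 mg/kg/day all 5 arrays lay above every control (adjusted p = 0.377 by limma). Of the further B lineage genes, *Irf8* did so too, with a difference of 0.34 (adjusted p = 0.277 by limma). At this dose 1.52% of all present probes had groups that did not overlap, in either direction. For the genes of these lists, only arrays above every control were counted. *Fkbp11*, a chaperone gene of secretory cells, was at 0.23, −0.34 and 0.01. *Xbp1*, the transcription factor of secretory cells, which hepatocytes also express, was at 0.52 at 50 mg/kg/day. *Prdm1*, the regulator of plasma cell differentiation, was well above background on only 1 array, and *Tnfrsf17*, which encodes the plasma cell receptor BCMA, on 2. Apart from *Ighm*, none of the probes matched an immunoglobulin segment gene of the heavy or light chains through the accessions. The RefSeq table pairs none of its 382 immunoglobulin segment genes, constant regions included, with a transcript. The other heavy chain classes and the light chains were therefore not analysed here.

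Markers of other cells in the liver were set beside these values. Of 10 T cell genes, 8 were present and 0 were called at any dose, and the mean of the 8 lay between −0.57 and −0.35 in control arrays and between −0.64 and −0.32 at 50 mg/kg/day. Of 8 neutrophil genes, 5 were present and 0 were called, and the mean lay between 0.35 and 1.39 in control arrays and between 0.61 and 1.33 at 50 mg/kg/day. All 10 Kupffer cell genes were present, and 1, *Marco*, was called at 75 mg/kg/day with a log2 fold change of 2.19, while the mean of the 10 lay between 2.29 and 2.65 in controls and between 2.49 and 3.19 at 50 mg/kg/day. *Marco* was at 1.71 at 50 mg/kg/day, with an adjusted p of 0.101 by limma. The paper reported *Marco* as significantly higher at this dose, a call that the main limma model did not reproduce. At 50 mg/kg/day 9 of the 10 Kupffer cell genes were above the control mean, as were all 6 present hepatocyte markers and 49.2% of all present probes. The median difference was 0.16 for the Kupffer cell genes and 0.23 for the hepatocyte markers, so the shift was not particular to Kupffer cell genes. An unadjusted p under 0.05 by limma was found for 3 of the Kupffer cell genes, *Marco*, *C1qa* (0.47) and *C1qb* (0.44), and for 6.7% of all present probes. The part of any of these cells in the *Ighm* values was not tested.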

How the data were processed

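Liver RNA of 20 mice was hybridized against a universal reference RNA on Agilent two-color arrays. The deposited scanner intensities were the median spot and background brightness of both channels, which the authors had extracted with Feature Extraction software and not normalized. The software's own processed intensities, also deposited, were corrected for background and for dye. The log2 ratios deposited by the authors had been LOWESS normalized within each array and served as an alternative. Software marks deposited by the authors, as a score of 0 or 1, gave the spots that were outliers, saturated or well above background.

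For each array, normexp (offset 50) removed background from the median intensities, loess normalization followed, outlier spots were dropped and each probe's spots were averaged as log2 ratios (R 4.3.3, limma 3.58.1, the data.table package in version 1.17.8, statmod 1.5.0; figures with Python 3.11.15 and matplotlib 3.10.9). The presence limit of an array was set from its 153 negative control spots, as their mean plus 3 SDs after a trim of 5%, and a present probe passed it in 4 or more of the 5 arrays of some group. All groups were fitted in 1 limma model with a two-sided test and Benjamini-Hochberg adjustment within each contrast, and the script was tested on simulated data. The MAANOVA model of the study and its removal of 1 unnamed sample were not used here. Single probes were also tested by exact permutation of arrays.

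Probes were named through RefSeq accessions (23374 probes, GRCm38.p6), and *Ighm* through an accession that the study pairs with it. For the lowest dose the series text has 24 mg/kg and the labels 25 mg/kg, which was used. The members and gene lists were chosen with earlier results of these data known, *Ighm* among them, so its position is not independent support. Named genes of the lists are up to 5 per list with the largest change, and others named were chosen after their values were seen. The likeness of other genes to a member was ranked by Pearson's r over the 20 arrays with slide means removed. The number of arrays limits the precision. Alternatives were the processed intensities, no background correction, the authors' ratios, the liver channel alone, other presence filters, fewer groups in the model, slide as a block and leaving out each array.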

Additional observations from a re-analysis of the deposited data

Results flagged for a closer look

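In 2 of 44 groups of 5 arrays, 1 array stood apart from the rest. *Cd79a* was at 0.36 in control replicate 3, and the next highest control was at −0.11, a gap of 0.774 of the group's range. *Pax5* was at 0.20 in replicate 18 of the 75 mg/kg/day group, and the next was at 0.05, a gap of 0.739 of the range. Chance gives about 1 such group in 20. Neither probe was well above background in liver on any array.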

How the results depend on the processing

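The count of called members was 0 at each dose and for the dose trend under each alternative run, with 1 exception. With slide as a random block, 1 member was called at 50 mg/kg/day, the 10-spot *Ighm* probe, at an adjusted p of 0.0489 by limma, together with 5 probes of other genes, compared with 0 calls among all probes without the block. Over 30 alternatives, its log2 fold change at 50 mg/kg/day lay between 1.46 (liver channel alone) and 2.02 (without replicate 12), and its adjusted p by limma, where tested, between 0.0489 and 0.760 (without control replicate 5). That of the 1-spot probe lay between 0.68 and 1.01. At 75 mg/kg/day the 10-spot probe lay between 0.29 and 0.97 and the 1-spot probe between 0.05 and 0.72, and at 25 mg/kg/day between 0.20 and 0.75 and between 0.01 and 0.62. The lowest values of the 10-spot probe at 75 mg/kg/day came from the mean of the within-slide differences, an alternative chosen after seeing the data, which also put *Blnk* at −0.63 at that dose. The cause was not tested. Pairing by replicate number was not possible, because the numbers run from 1 to 20 and no number is shared between groups. Arrays that share a slide were instead compared by the slide blocks and within-slide differences given above.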

Other observations

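The genes whose ratios were most like those of a member over the 20 arrays, with the mean of each slide removed, were compared among 12873 genes. For the 1-spot *Ighm* probe they were *Msr1*, a macrophage scavenger receptor (r = 0.86), *Ms4a4b* (0.86) and *Timm22* (0.81), and for the 10-spot probe *Usp46*, *Dhcr7* and *Ankrd27* (0.85 each). No gene was shared between the 2 lists. For *Mzb1* they were *Samd14*, *Capg* and *Thbs2*, for *Pou2af1* *Plaur*, *Rgs3* and *Ltbp2*, and for *Jchain* probe A_51_P150710 *Gpsm1*, *Stk39* and *Myo1c*, all with r between 0.92 and 0.95. *Cd79b* was most like *Rhbdl3*, *Itgb2* and *Rftn2* (r between 0.84 and 0.85), *Ms4a1* most like *Arhgap25*, *Gtpbp3* and *Kptn* (0.89 to 0.91) and *Blnk* most like *Sugp1*, *Gsdme* and *Nipa1* (0.82 to 0.85). None of these 24 genes belongs to the 9 members. The arrays share slides and the reference channel, and the values are descriptions. Without the removal of slide means, r was lower for all 24, at 0.52 for *Msr1* and 0.41 for *Usp46*. It was lowest at 0.19 for *Rhbdl3*, and it was 0.32 for *Stk39*.

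Markers of red cells and platelets were also counted. Of 6 red cell genes, 3 were present, and of 4 platelet genes all 4 were present, and 0 were called at any dose. At 75 mg/kg/day the red cell genes had a median difference from control of 0.31 and the platelet genes of 0.24, with 2 genes of each list at an unadjusted p under 0.05 by limma. Of all present probes, 11.2% had such a p at this dose. The 6 present hepatocyte markers had a median difference of 0.36, and 2 of them had such a p, so the shift was not particular to blood cell genes.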
